A study of Mus musculus with 4 samples.

Results

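Neurog3, Sox3, Upp1, Pax7, Glis3, Egr4 and Tex14 are genes linked to progenitor spermatogonia, the early male germ cells that are leaving self-renewal and moving toward differentiation. Their transcripts were followed in mouse testis at postnatal day 7, in RNA recovered with FLAG-tagged NANOS2 and in the starting RNA. The 7 genes were chosen by name, with earlier results of these data known. Every array probe whose RefSeq accession maps to one of them was taken. This gave 7 of the 16358 named genes and 7 of 41174 probes, 1 per gene and each printed as 1 spot.

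All 4 samples were testes of male mice with the transgene Tg-Nanos2 enhancer-3xFLAG-Nanos2-3'UTR, in which a Nanos2 enhancer drives Nanos2 tagged with 3xFLAG and followed by the Nanos2 3′ untranslated region. They form 2 groups of 2 biological duplicates, FLAG IP (RNA of the FLAG immunoprecipitate) and Input (RNA of the starting material). The stage was taken from titles and characteristics, which say day 7, although the description of every sample speaks of a fetal gonad. The labels do not say which cells express the transgene, how many animals gave a sample or what the strain was, and an untagged immunoprecipitate was not analysed here. A change between the groups therefore compares relative abundance in the precipitated and starting RNA, and binding to NANOS2 was not measured separately. The RNA came from whole testis, so the cells that a transcript came from were not measured, and a change does not count cells.

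NANOS2 binds RNA in male germ cells, recruits the CCR4-NOT deadenylase to its target transcripts and keeps spermatogonial stem cells undifferentiated. Undifferentiated spermatogonia range from cells that respond to GDNF, marked by Gfra1, to progenitors marked by the helix-loop-helix factor Neurog3, which mostly go on to differentiate and can return to the stem cell state. SOX3 acts upstream of Neurog3 in these cells, and PAX7 marks a rare subset of single spermatogonia.

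Levels are given as log2 of the processed spot signal relative to that array's 75th percentile, and a change is the FLAG IP mean minus the Input mean on that scale. Errors of a change are limma standard errors, and adjusted p-values are limma's with Benjamini-Hochberg adjustment over all 27823 tested probes, which had to be well above background in both replicates of either group. Each array had between 66.3% and 68.4% of its probes well above background and 0 saturated spots, and precision is limited by how few arrays there are. The defining markers Ddx4 and Dazl of germ cells, Sox9 and Wt1 of Sertoli cells and Star and Insl3 of Leydig cells were well above background on all 4 arrays. Nanos2 itself stood at −3.87 and −3.66 in the Input and at −1.94 and −2.44 in the FLAG IP, a change of 1.58 ± 0.22 (SE, adjusted p = 0.0107). Whether its probe also reads RNA of the transgene was not tested.

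The study set the FLAG IP against the Input to look for mRNAs associated with NANOS2, and the values here are relative abundances in the 2 kinds of RNA. Of the 7 transcripts, Neurog3 was 13.0-fold higher in the FLAG IP, Pax7 3.47-fold and Glis3 3.22-fold. Sox3, Egr4 and Tex14 were not called in either direction. Upp1 was too dim to be tested. Of the 6 tested members 3 were called higher at an adjusted p under 0.05 and 0 lower (0 also at an unadjusted p under 0.05), where 15.6% of all tested probes were called higher, 20.1% lower and 35.6% in either direction. The members were chosen with earlier results of these data known, so their counts beside these shares are no independent test. For 0 of the 6 did both FLAG IP arrays lie below both Input arrays, as they did for 43.3% of all tested probes. All 6 were well above background on the 4 arrays, so none of them entered the test only through the group in which it was high.

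**Figure D1:**
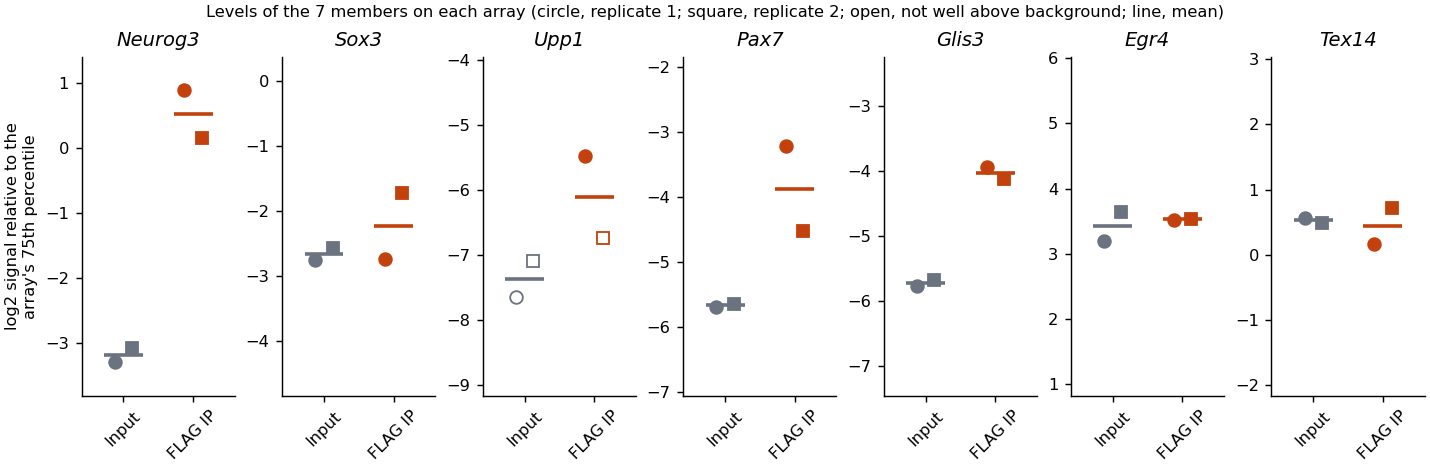
Levels of the 7 members on each array, as log2 signal relative to the array's 75th percentile. Every panel spans the same height of log2 units, points are single arrays (open where the spot was not well above background) and lines are means of 2 arrays. Neurog3, Pax7 and Glis3 have both FLAG IP arrays above both Input arrays, and the arrays of Sox3, Egr4 and Tex14 overlap.

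Neurog3 (probe for NM_009719) encodes the transcription factor that gives this progenitor population its usual marker and that starts the endocrine programme in the pancreas. Its level was −3.30 and −3.07 on Input arrays 1 and 2 and 0.88 and 0.15 on FLAG IP arrays 1 and 2. Both FLAG IP arrays lay far above both Input arrays. The change was 3.70 ± 0.28 (SE, n = 2 arrays per group, adjusted p = 0.00447), with a 95% interval of 2.97 to 4.44. Taken array by array, the 4 possible differences ran from 3.22 to 4.18. Among all tested probes 27 (0.097%) changed by at least as much, Neurog3 included. Before scaling, the processed signal of the spot was 149.8 and 199 in the Input and 1874 and 1405 in the FLAG IP. The spot's median brightness was 4.25 and 5.73 times its local background in the Input, and 39.2 and 31.3 times in the FLAG IP. The transcript was thus measured above background on each array, and its rise was already present in the unscaled signals. It was called under all 15 alternative settings, with changes from 2.62 to 4.07. Where no array was left out, adjusted p ran from 2.75e-06 to 0.0217. The lowest came from spike-in scaling, where the change was smallest and each tested member had the same standard error, 0.49. That p-value therefore does not mark a stronger change.

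Sox3 (NM_009237) encodes an X-linked SoxB1 transcription factor needed for the progenitor stage. It stood at −2.74 and −2.56 in the Input and at −2.74 and −1.72 in the FLAG IP. FLAG IP array 1 was level with the Input, FLAG IP array 2 was above it, and the groups overlapped. The change was 0.42 ± 0.36 (adjusted p = 0.393), with a 95% interval of −0.51 to 1.36. The FLAG IP arrays differed from each other by 2.02-fold for Sox3, a gap exceeded by 4.25% of tested probes. Without FLAG IP replicate 1 the change was 0.93, and without FLAG IP replicate 2 it was −0.08, so its size and sign rested on 1 array.

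Glis3 (NM_175459) encodes a Krüppel-like zinc finger factor that activates Neurog3 in the pancreas and is needed for postnatal spermatogonia. Its levels were −5.76 and −5.68 in the Input and −3.94 and −4.13 in the FLAG IP. The groups did not overlap, and within each group the arrays lay close together. Both FLAG IP arrays lie above both Input arrays for 30.5% of all tested probes. The change was 1.69 ± 0.15 (SE, n = 2 per group, adjusted p = 0.0053), and 3.29% of tested probes rose by at least as much. Glis3 was dim, with a spot median of 1.58 and 1.69 times the local background in the Input and 2.06 and 2.34 times in the FLAG IP. It stayed called under 14 of 15 alternative settings. Its change was 0.88 (adjusted p = 0.00444) under normexp background correction, and with scaling to spike-in spots 0.60 (adjusted p = 0.266).

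Pax7 (NM_011039) encodes a paired-box factor best known from muscle stem cells. Its levels were −5.69 and −5.64 in the Input and −3.21 and −4.53 in the FLAG IP. Both FLAG IP arrays were above both Input arrays, but they were 2.49-fold apart, a gap exceeded by 1.91% of tested probes. The change was 1.79 ± 0.45 (SE, n = 2 per group, adjusted p = 0.0372), with a 95% interval of 0.63 to 2.96. This spot was also dim, at 1.69 and 1.74 times the local background in the Input and 2.90 and 2.13 times in the FLAG IP. The call ended without Input replicate 1 (1.77) and without Input replicate 2 (1.82). It also ended when dim probes were kept in the test (adjusted p = 0.0952) and under spike-in scaling (0.71, adjusted p = 0.189). Without FLAG IP replicate 1 the change was 1.14, and without FLAG IP replicate 2 it was 2.45. These 2 fits leave out the gap between the FLAG IP arrays, so their p-values are not given. Under normexp background correction the change was 0.997 (adjusted p = 0.0177).

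Upp1 (NM_009477) encodes uridine phosphorylase, an enzyme of pyrimidine salvage used as a progenitor marker. The spot was well above background on FLAG IP array 1 alone, at −5.47. It was at −6.73 on FLAG IP array 2 and at −7.65 and −7.09 in the Input, none of them well above background. With the Input not measured and 1 of 2 FLAG IP arrays measured, no fold is given. Leaving all dim probes in the test gave no call for it (adjusted p = 0.194).

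Egr4 (NM_020596) encodes a zinc finger factor of the early growth response family whose loss makes male mice infertile. Its levels were 3.20 and 3.64 in the Input and 3.52 and 3.54 in the FLAG IP. Both FLAG IP arrays fell between the Input arrays. The change was 0.11 ± 0.20 (adjusted p = 0.679), with a 95% interval of −0.40 to 0.62. A 2-fold change is a log2 change of 1, so on this scale the interval holds neither a 2-fold rise nor a 2-fold fall. The spot was between 187 and 354 times brighter than its local background, so nearness to background did not limit this value. The sign turned without Input replicate 1 (−0.11). It also turned under spike-in scaling, where the change was −0.97 ± 0.49 (adjusted p = 0.0721) and a 2-fold fall was not excluded.

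Tex14 (NM_031386) encodes the protein that keeps the intercellular bridges of dividing germ cells open, by which progenitors stay joined in chains. It stood at 0.57 and 0.49 in the Input and at 0.16 and 0.71 in the FLAG IP, on either side of the Input arrays. The change was −0.09 ± 0.22 (adjusted p = 0.76), with a 95% interval of −0.68 to 0.49, which on this scale also holds no 2-fold change. Without FLAG IP replicate 1 it was 0.18. Under spike-in scaling it was −1.18 (adjusted p = 0.0303), more than a 2-fold fall. RefSeq gives Tex14 2 curated transcripts, Glis3 2 and Upp1 3, and each has a probe for only 1 of those accessions here.

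The FLAG IP replicates differed more from each other than the Input replicates did, and the members did not share a direction in this. The median gap between replicates over all tested probes was 0.25 in the FLAG IP and 0.15 in the Input. Neurog3, Pax7, Glis3 and Upp1 were higher on FLAG IP array 1, and Sox3, Egr4 and Tex14 were higher on FLAG IP array 2. On the same arrays the general germ cell transcripts Ddx4 and Dazl, both RNA-binding proteins, were also higher on array 2, at 3.35 and 4.01 for Ddx4 and at 3.50 and 4.05 for Dazl. Their part in the spread of Sox3 and Tex14 was not tested. Against the Input, Ddx4 changed by 0.16 ± 0.25 (adjusted p = 0.638) and Dazl by 0.66 ± 0.23 (adjusted p = 0.0777).

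**Figure D2:**
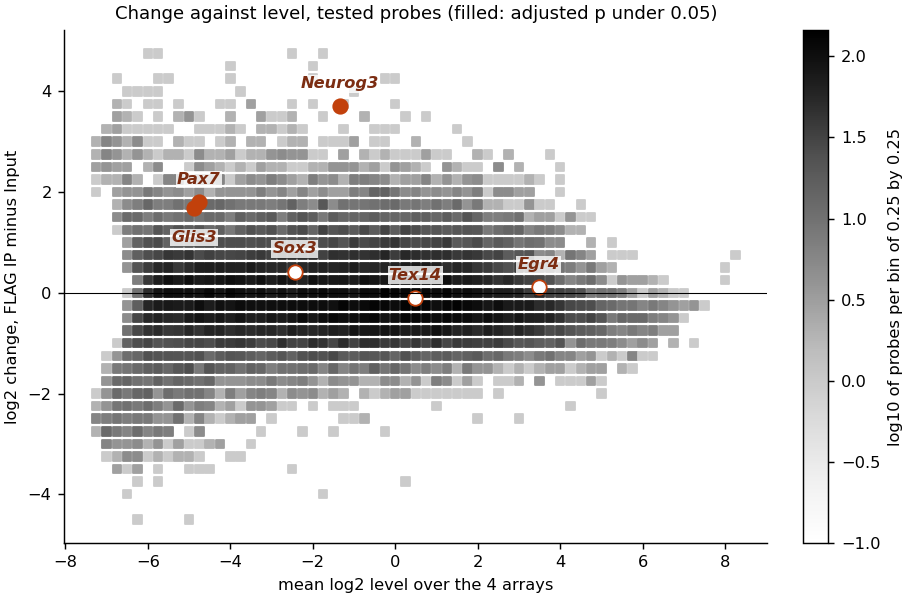
Change between FLAG IP and Input (vertical, log2) against the mean level over the 4 arrays (horizontal, log2 relative to the 75th percentile) for the 27823 tested probes in grey bins, with the 6 tested members in orange, filled where called. Neurog3 at 3.70 lies at the upper edge of the probes of its level, Pax7 and Glis3 lie at the dim end, and Sox3, Egr4 and Tex14 lie near 0 over a wide range of levels.

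Of the members' signs, those of Sox3 and Egr4 depended on how the arrays were scaled. Scaling to the spike-in control spots moved the median change of all tested probes from −0.13 to −1.21. It called 1.64% of them higher and 58.4% lower, and counts of a list on that scale are to be read beside these shares. Each tested member had the same standard error there, 0.49. On that scale the changes were 2.62 for Neurog3 (adjusted p = 2.75e-06), 0.71 for Pax7 (adjusted p = 0.189), 0.60 for Glis3, −0.66 for Sox3 (adjusted p = 0.221), −0.97 for Egr4 (adjusted p = 0.0721) and −1.18 for Tex14, which was then called lower (adjusted p = 0.0303). Relative to that median, Tex14 lay at 0.03, Egr4 at 0.24, Sox3 at 0.55, Glis3 at 1.81, Pax7 at 1.92 and Neurog3 at 3.83. The order of the 6 was the same on both scales, because the shift is 1 constant for all probes.

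**Figure D3:**
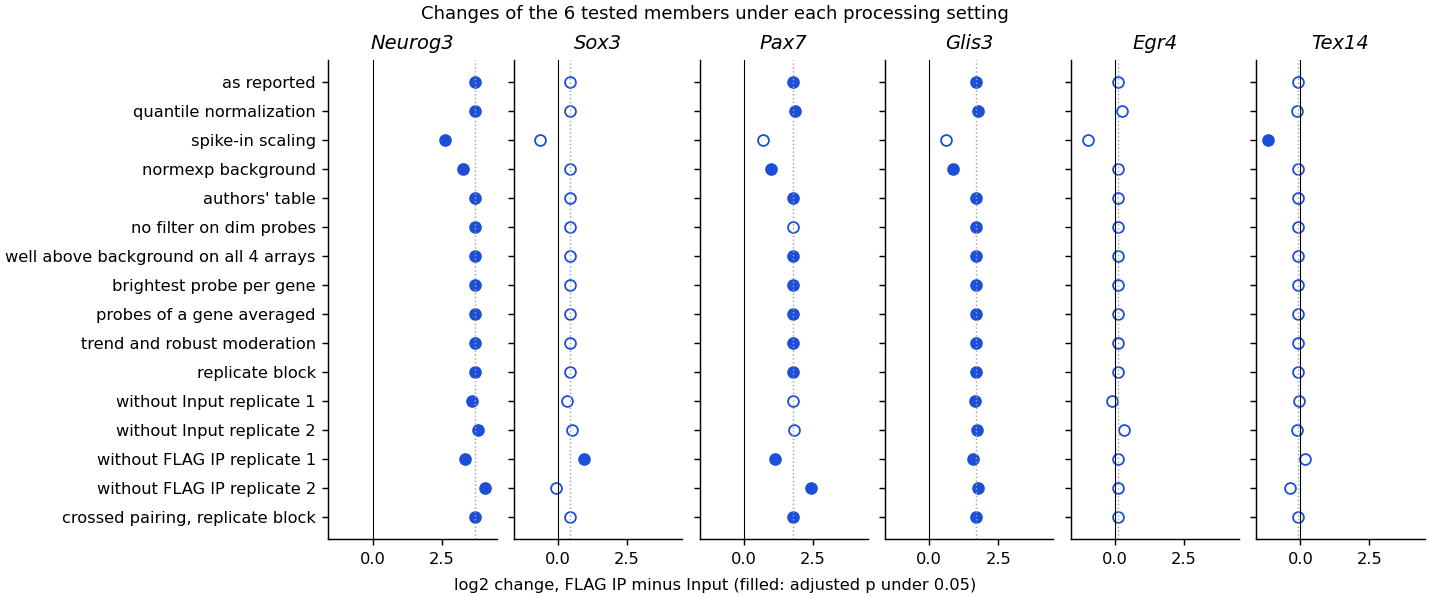
Change between FLAG IP and Input (horizontal, log2) of the 6 tested members as reported and under each of 15 alternative settings (rows), filled where the adjusted p was under 0.05. Neurog3 is filled in every row, Glis3 in all but the spike-in scaling, Pax7 loses its call in 4 rows, and Egr4 and Tex14 stay near 0 except under spike-in scaling, where they lie at −0.97 and −1.18.

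Close relatives of the members did not move alike. Sox2, the SoxB1 factor of pluripotent and neural stem cells, stood at −6.18 and −6.41 in the Input and at −2.99 and −2.98 in the FLAG IP. In the Input its spot was too dim to exceed background clearly. The change of Sox2 as measured was 3.31 ± 0.15 (adjusted p = 0.0042), with an interval of 2.91 to 3.71. The interval of Sox3 ended at 1.36 on the same log2 scale. Sox1 changed by 0.01 ± 0.28 (adjusted p = 0.988). In the early growth response family, Egr2 rose by 2.84 ± 0.14 (adjusted p = 0.0042) and Egr1 by 1.98 ± 0.15 (adjusted p = 0.00447), against 0.11 for Egr4. Under spike-in scaling Sox2 and Egr2 were still called higher, at 2.23 and 1.75, Egr1 lost its call (0.90, adjusted p = 0.0973), and Sox3 and Egr4 were below 0.

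Of the other neurogenins, Neurog1 changed by 0.26 ± 0.24 (adjusted p = 0.419) and Neurog2 by 0.77 ± 0.22 (adjusted p = 0.0504), the latter well above background on 1 of 2 Input arrays. Neurog2 was called higher with quantile normalization (0.86, adjusted p = 0.0331) and normexp background correction (0.44, adjusted p = 0.0433), with the brightest probe per gene (adjusted p = 0.0499) and with crossed replicate numbers (adjusted p = 0.0356), and stood at −0.32 (adjusted p = 0.566) under spike-in scaling. Glis1 changed by 0.00 ± 0.15 (adjusted p = 0.987). Glis2 fell by 0.57 ± 0.15 (adjusted p = 0.0401), a call that ended when any 1 of the arrays was left out (adjusted p from 0.0709 to 0.268). Upp2, Pax3, Egr3 and Sox21 were not well above background in either group, and Sox14 had no probe matched to it. Of the 8 paralogues tested 3 were higher and 1 was lower, beside 15.6% and 20.1% of all tested probes. However, Sox2 and Neurog2 entered the test only through the FLAG IP, where they were higher. Of the 6 well above background on all 4 arrays, 2 were higher and 1 lower, with a median change of 0.14 beside −0.11 for all probes of that kind. The calls of Sox2, Egr2 and Egr1 held when each array was left out in turn. The differences between relatives were not tested as such.

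**Figure D4:**
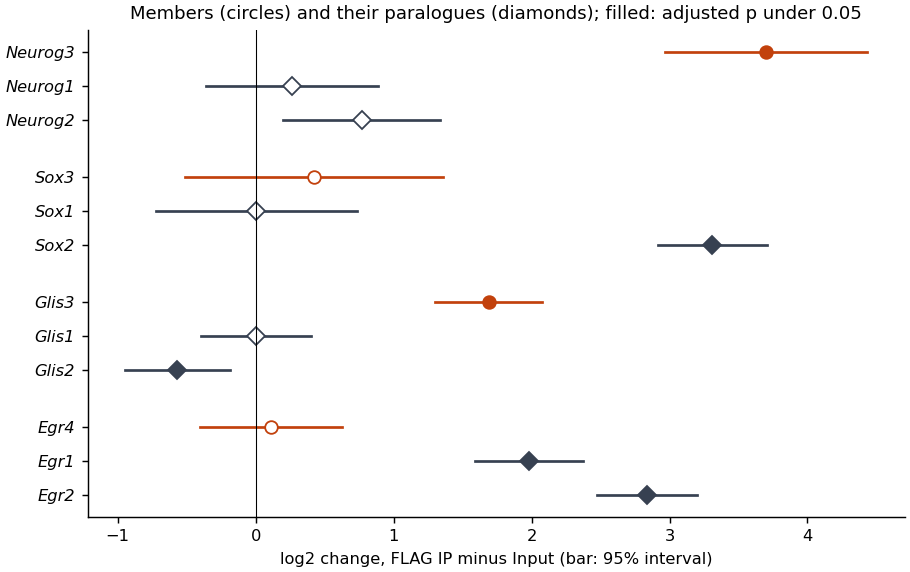
Change between FLAG IP and Input (log2) with its 95% interval for 4 members (orange circles) and the tested relatives of each (grey diamonds), filled where called. Neurog3 and Glis3 lie above their relatives, Sox2 at 3.31 lies above Sox3, and Egr1 and Egr2 lie above Egr4; for Sox2, too dim in the Input, the change as measured is drawn. Under spike-in scaling Sox3, Egr4 and Neurog2 are below 0.

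NEUROG3 protein works as a dimer with E proteins, which the Id proteins hold off from DNA. Of these 7 partners and inhibitors, 1 was higher and 2 were lower, beside 15.6% and 20.1% of all tested probes. Id4, an Id protein that marks spermatogonial stem cells, rose by 1.86 ± 0.13 (adjusted p = 0.00422), a call kept when each array was left out but not under spike-in scaling (0.77, adjusted p = 0.153). Id2 fell by 0.97 ± 0.14 (adjusted p = 0.0122) and the E protein Tcf3 by 0.85 ± 0.14 (adjusted p = 0.014). Both of these calls ended when either Input array was left out, as did most calls over all tested probes. Under spike-in scaling 4 of the 7 were lower and the others not called, with a median of −1.11, where 58.4% of all tested probes were lower. Id1 stood at −0.68 ± 0.24 (adjusted p = 0.0849). For both Id1 and Id2, 1 of 2 probes was called lower and the other was not called.

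In many tissues Notch signalling represses the neurogenins through Hes and Hey factors. Of 20 tested genes of this pathway, 7 were higher, 2 lower and 11 not called, with a median change of 0.13. Among all tested probes 15.6% were higher and 20.1% lower. Hey2 rose by 2.33 ± 0.18 (adjusted p = 0.00477), Rbpj, the DNA-binding partner of the Notch receptors, by 1.53 ± 0.14 (adjusted p = 0.0054), and Hey1 by 1.36 ± 0.21 (adjusted p = 0.0128). The receptor Notch3 fell by 1.52 ± 0.36 (adjusted p = 0.033). Most of these calls, though not that of Hey2, ended when either Input array was left out, as did most calls over all tested probes. The median was then 0.16 without replicate 1 and 0.14 without replicate 2. Under spike-in scaling 1 was higher and 9 were lower, with a median of −0.96, where 58.4% of all tested probes were lower.

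Genes that act with or after Neurog3 in the endocrine pancreas include 10 that could be tested here. Of these 6 were higher, 1 lower and 3 not called, beside 15.6% higher and 20.1% lower among all tested probes. Insm1, a zinc finger factor of endocrine cells, was at least 1.73-fold higher (adjusted p = 0.00517), and Neurod2 at least 1.87-fold (adjusted p = 0.0144), as neither was well above background in the Input. Isl1, a LIM-homeobox factor, rose by 1.17 ± 0.20 (adjusted p = 0.0152) and Nkx6-1 by 1.13 ± 0.30 (adjusted p = 0.0435). Pax4, Nkx2-2, Rfx6 and Nhlh1 were not well above background on any array, and Neurod1 on 1 FLAG IP array. Insm1, Neurod2 and Pax6 entered the test only through the FLAG IP, where they were higher. Of the 7 genes well above background on all 4 arrays, 3 were higher and 1 lower, with a median change of 0.39. Over all 10 the median was 0.98, or 0.84 with Insm1 and Neurod2 at their bounds. Under spike-in scaling 1 was higher and 3 were lower, with a median of −0.10, where 58.4% of all tested probes were lower. When either Input array was left out most of the list's calls ended, as did most calls over all tested probes. The median was then 0.81 without replicate 1 and 1.04 without replicate 2.

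TEX14 acts at the bridge with proteins of the midbody, the structure that otherwise cuts sister cells apart. In the list of 16 bridge and midbody genes 3 were higher, 2 lower and 11 not called, and the median change was −0.03. Among all tested probes 15.6% were higher and 20.1% lower, so these counts do not set the list apart. Ect2, which activates RhoA for the cleavage furrow, rose by 2.07 ± 0.16 (adjusted p = 0.00477) and Plk1, a mitotic kinase, by 1.24 ± 0.15 (adjusted p = 0.0083). Pdcd6ip, known as ALIX, fell by 1.06 ± 0.16 (adjusted p = 0.0127), and Septin9 by 1.04 ± 0.16 (adjusted p = 0.0136). CEP55, the midbody protein that TEX14 binds, had a transcript change of 0.52 ± 0.24 (Cep55, adjusted p = 0.155). Under spike-in scaling 9 of the 16 were lower and the others not called, with a median of −1.12, where 58.4% of all tested probes were lower. Ect2 (0.99, adjusted p = 0.0674) and Plk1 (0.15, adjusted p = 0.786) lost their calls on that scale. Most of the list's calls ended when either Input array was left out, as did most calls over all tested probes. The median was then −0.02 without replicate 1 and −0.03 without replicate 2.

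Beside the progenitor factors, 11 of 14 tested factors from the GDNF-responsive side of the stem cell pool were higher. The remaining 3 were not called, and the median change was 1.74. Among all tested probes 15.6% were higher, but these factors too were chosen with earlier results of these data known. This list includes Lhx1 at 4.14 ± 0.34 (adjusted p = 0.00493), Eomes at 4.09 ± 0.29 (adjusted p = 0.00422), Egr2 and the homeobox gene Nkx6-2 at 2.43 ± 0.16 (adjusted p = 0.00422). Nanos2, the gene of the transgene, is also counted among the 11, and whether its probe reads transgene RNA was not tested. Ret and Eomes entered the test only through the FLAG IP. Of the 12 well above background on all 4 arrays 9 were higher, with a median of 1.72, where 16.5% of all probes of that kind were higher. Some of the calls ended when either Input array was left out. The median was then 1.47 over 15 tested genes without replicate 1 and 1.83 over 14 without replicate 2. Under spike-in scaling 6 were higher and 2 lower, with a median of 0.65, where 1.64% of all tested probes were higher and 58.4% lower. Of 21 further factors of undifferentiated and progenitor spermatogonia, 8 were higher, 2 lower and 11 not called, with a median of 0.64 (−0.44 under spike-in scaling). The shares of all tested probes were 15.6% higher and 20.1% lower. Lhx2 rose by 2.38 ± 0.28 (adjusted p = 0.00795), Foxc2 by 1.94 ± 0.15 (adjusted p = 0.00447) and the adhesion protein Cdh1 by 1.73 ± 0.17 (adjusted p = 0.00603), and Zbtb20 fell by 1.70 ± 0.26 (adjusted p = 0.0131). Leaving out either Input array ended most of the calls in this second list, as it did for most calls over all tested probes. The median was then 0.63 without replicate 1 and 0.60 without replicate 2.

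Among 12 tested genes listed for differentiating spermatogonia, the stage after the progenitors, 2 were higher, 1 lower and 9 not called, with a median of −0.14. The 12 include Kitl, which is also counted in the Sertoli list (−0.39 ± 0.16, adjusted p = 0.122). Among all tested probes 15.6% were higher and 20.1% lower, so these counts do not set the list apart. Lin28b rose by 1.80 ± 0.19 (adjusted p = 0.00681, on 1 of its 2 probes) and Sohlh2, a helix-loop-helix factor shared with the undifferentiated list, by 0.82 ± 0.18 (adjusted p = 0.0268). Crabp1, a retinoic acid carrier, fell by 0.88 ± 0.18 (adjusted p = 0.0228). Kit, the receptor that marks this stage, stood at −0.55 ± 0.19 (adjusted p = 0.0786). Under spike-in scaling 9 of the 12 were lower and the others not called, with a median of −1.22, where 58.4% of all tested probes were lower. Neither Lin28b (0.71, adjusted p = 0.188) nor Sohlh2 (−0.26, adjusted p = 0.633) was called on that scale. With either Input array left out most of the list's calls ended, as did most calls over all tested probes. The median was then −0.15 without replicate 1 and −0.23 without replicate 2.

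Somatic transcripts moved on the same arrays. Lower in the FLAG IP were 11 of 26 Sertoli cell markers, 8 of 16 Leydig cell markers, 6 of 11 peritubular myoid markers and 7 of 11 macrophage markers, and the others in these lists were not called. Of 12 endothelial markers 2 were lower and 1, Flt1, was higher. Among all tested probes 20.1% were lower, a share that the endothelial count does not exceed. Under spike-in scaling the lower counts were 25 of 26 for Sertoli, 15 of 16 for Leydig, 11 of 11 for myoid, 11 of 11 for macrophage and 10 of 12 for endothelial markers. On that scale 58.4% of all tested probes were lower. Summed on the linear scale relative to the 75th percentile, the Sertoli list was 429 and 398 in the Input and 281 and 286 in the FLAG IP. The Leydig list summed to 67.2 and 54.9 against 36.0 and 39.2, the myoid list to 142 and 128 against 83.5 and 86.9, and the macrophage list to 15.7 and 16.3 against 10.2 and 10.2. The endothelial sums were 9.67 and 12.3 against 8.85 and 7.01. Nearly all calls in the 5 lists ended when either Input array was left out, as did most calls over all tested probes. The list medians then ran from −1.11 to −0.46. The part of somatic transcripts in the changes of Neurog3, Pax7 and Glis3 was not tested.

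**Figure D5:**
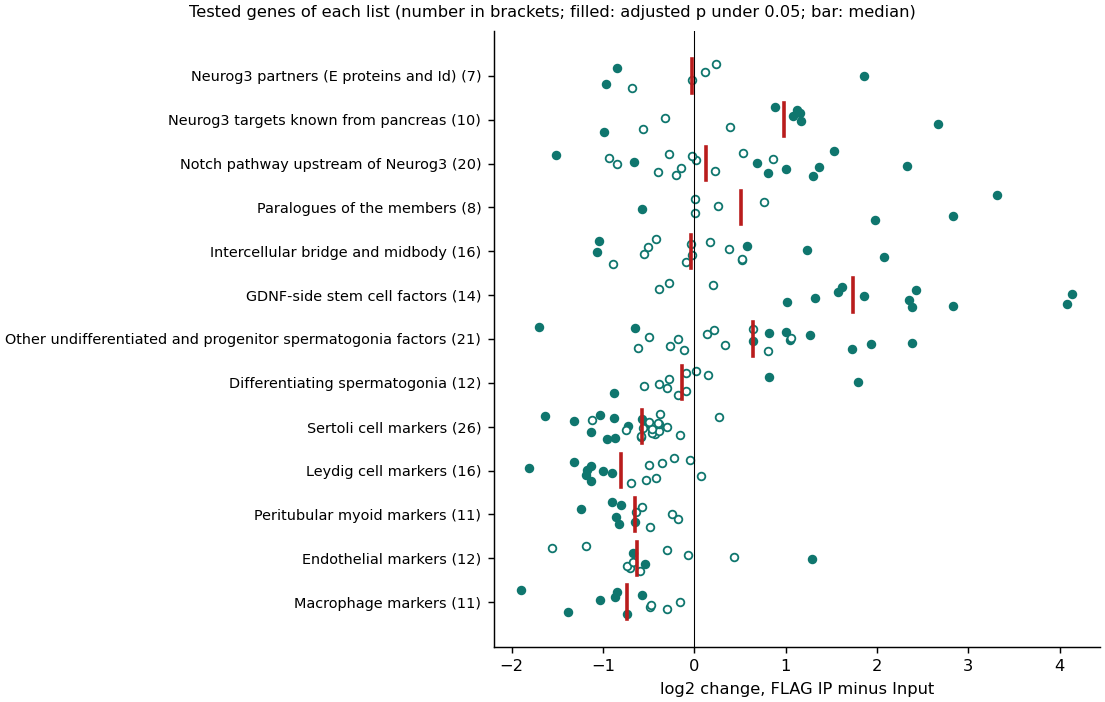
Change between FLAG IP and Input (log2, horizontal) of every tested gene in each list, by its brightest probe, filled where called, with the median of the list as a bar. The factors of the GDNF side have the highest median (1.74), the Leydig markers the lowest (−0.80), and the Notch, bridge and differentiating lists spread to both sides of 0. Under spike-in scaling the medians of the paralogue, pancreas, Notch and further undifferentiated lists are below 0.

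The transcripts whose pattern over the 4 arrays was most like that of Neurog3 were found by centring each probe on its own mean and taking the smallest Euclidean distance, among 18442 tested probes with a gene symbol. They were Nr5a2, an orphan nuclear receptor (distance 0.158, 12-fold higher), Grm3, a glutamate receptor (0.208, 11.8-fold), F2rl1, a protease-activated receptor, Lrrc3b (0.244, 11.6-fold) and Hlf, a bZIP transcription factor (0.278, 11-fold). F2rl1 was measured only in the FLAG IP, where it was at least 2.78-fold higher, and its place among the 5 rests on Input values at background, so it is no measured likeness. Hlf, for example, stood at −1.12 and −0.98 in the Input and at 2.69 and 2.12 in the FLAG IP. Each of the 5 was higher on FLAG IP array 1 than on array 2, as Neurog3 was, which the choice by distance on these same arrays had fixed. The measure rests on 4 arrays in 2 groups.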

How the data were processed

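Testis RNA of postnatal day 7 was hybridised to 4 Agilent arrays with Cy3 as the 1 dye, all on 1 slide and scanned at 1 time, per the file headers. Spots were read with Agilent Feature Extraction (9.5 in the submitters' processing notes), and the deposited scanner files hold processed signal intensity, raw median and local background intensity, and flags, per the file headers. The authors' deposited table holds log2 values whose 75th percentile is 9.76 on every array and whose medians are 6.18, 6.25, 6.25 and 6.15. Subtracting 1 constant per array from the log2 processed signals gave these values, within 0.01 for 99.6% of probes. No source used here names the scaling software. The labels' protocols do not describe the immunoprecipitation.

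Control spots and outlier spots (62 to 90 per array) were left out, spots of a probe were averaged, and log2 signals were scaled to the array's 75th percentile. Accessions were matched without version to RefSeq of GRCm38.p6, which named 22951 of 41174 probes (55.7%). Coordinates are left out because the array design predates that build, and the files used here hold no probe sequences. All tested probes were fitted without covariates in limma 3.58.1 under R 4.3.3, using lmFit and eBayes with two-sided tests. The same fit was then run on simulated data. Their spread was drawn from the fit to these arrays, so that run is no independent check. Nothing says that the samples came from separate animals beyond the design text's word for duplicates, and p-values measure the spread between these samples. A level not well above background on every array of a group was taken as a bound. Per array this was the larger of its own value and the dimmest value flagged well above background. Its fold is given as "at least", which leaves out the error of the means. For Sox2 the bound equals the measured change, so the change and its interval are given instead.

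The 7 members and the 13 gene lists were chosen with earlier results of these data known. Each list gene was counted by its brightest probe. Named genes are all members, up to 4 genes of each list (called ones first, then by size) and the 5 probes nearest to Neurog3. Somatic lists are given by counts and sums. Ddx4, Dazl, Flt1, Cep55, Pax6, Ret and Kitl, the other paralogues and the genes listed as not measured were named after their values were seen.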

Additional observations from a re-analysis of the deposited data

How the results depend on the processing

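Neurog3 kept its direction and its call under all 15 alternatives, and Glis3 under 14. The count of tested probes called was 9916. It was 16703 with scaling to spike-in spots, 5575 with the replicate block, and 1631 to 10064 when each array was left out in turn. The genes called in the 13 lists, 83 in all, were 125, 53 and 16 to 83 in the same order. Without Input replicate 1, 16 of the 83 stayed called, and without Input replicate 2, 18. The members called, 3 of 6 as reported, were 2 to 4 when each array was left out. The 4 without FLAG IP replicate 2 include Upp1, which then passed the filter only through the array where it was high. Higher calls made up 43.7% of the total, against 2.72% with spike-in scaling (455 higher and 16248 lower), 51.3% without Input replicate 1 and 60.4% without Input replicate 2.

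The sign turned with spike-in scaling for Sox3 (−0.66) and Egr4 (−0.97), and when an array was left out for Sox3 (−0.084 to 0.93), Egr4 (−0.11 to 0.33) and Tex14 (−0.37 to 0.18). Spike-in scaling shifts all probes by 1 constant, and relative to the median of all tested probes Sox3 stayed at 0.55 and Egr4 at 0.24. With an array left out the number of arrays was smaller, and the cause of those turns was otherwise not tested. The replicate block changed no member's call. The labels do not tie the numbers to a shared animal or day, and the deviations of same-numbered arrays correlated at −0.377 over probes. A block with crossed numbers, chosen after seeing the data, called 5588 probes higher and 7943 lower. Slide and scan could not be used as a block, since all arrays share them. The raw median signal stood in for the mean signal in the normexp correction, as the files used here hold no mean spot signal. Dim spots limit Pax7, Glis3 and Upp1. A group with 1 array left is assumed to vary like the other group.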
